A study of Homo sapiens with 4 samples.

Results

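Genes that separated the leiomyosarcoma lines SKLMS1 and SKUT1 from the lines RKN and SKN were described from the deposited FPKM table. All 4 are established human lines of leiomyosarcoma, a cancer of smooth muscle type, and each gave 1 poly(A) RNA-seq library. The cells were grown untreated in DMEM, a standard culture medium, supplemented with 10% FBS (fetal bovine serum). SKLMS1 and SKUT1 are each 1 line, as are RKN and SKN, so lines of a pair are not replicates of a condition, and the labels group them in no such way. FPKM gives the fragments of a gene per kilobase of its transcript, relative to the size of the library. A gene was a member when the lower value of one pair exceeded the higher value of the other by 2 or more on log2(FPKM + 1), which is 4-fold on that scale, with an FPKM of 1 or more in any line. This distance is called the gap, with a minus sign where SKLMS1 and SKUT1 were the lower pair. Of the 13713 genes that reached this level, 152 were members: 118 (0.860%) were higher in SKLMS1 and SKUT1 and 34 (0.248%) were lower. The members were chosen by these values, so their gaps are a description, and no p-value, standard error or replicate check exists with 1 library per line.

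Differentiated smooth muscle cells hold actin, myosin and their regulators in a contractile apparatus, and lay down collagens and proteoglycans around them. Serum response factor (SRF) binds a DNA element called the CArG box in many contractile genes, and its coactivators of the myocardin family respond to the state of actin. TAGLN (transgelin) and CNN1 (calponin) are actin-binding proteins used as markers of this lineage. In cancer lines the programme is often kept only in part.

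The table gives no read totals. From the steps of low values, with the gene models of GENCODE release 29, which may not be the authors', the depth was estimated at 30600000 reads in SKLMS1, 24400000 in SKUT1, 33600000 in RKN and 25300000 in SKN. The columns summed to 494047 FPKM in SKLMS1 and 619584 in SKUT1, against 446954 in RKN and 538300 in SKN. Over all 13713 genes the median difference between the pair means was -0.00 on the log2 scale. After rescaling every column to the same sum (TPM) it was -0.16, so the centre of the comparison depends on that choice. Of 10 smooth muscle markers, all reached an FPKM of 1 in some line, but DES (desmin) and MYH11 (smooth muscle myosin heavy chain), which mark mature smooth muscle, were at most 1.10 and 1.15. Skeletal muscle markers were under 1 in every line for 8 of 8 genes, immune markers for 6 of 8, melanocyte and neural crest markers for 6 of 8 and adipocyte markers for 7 of 8. Endothelial markers summed to 0.225 FPKM in SKLMS1 and 40.4 in SKUT1, against 4.93 in RKN and 75.1 in SKN. Epithelial markers summed to 466 in SKLMS1 and 431 in SKUT1, against 56.0 in RKN and 556 in SKN. Neither sum separated the pairs. The immune sum did, at 23.0 in SKLMS1 and 77.4 in SKUT1, against 5.78 in RKN and 18.0 in SKN, mostly from CD68, a lysosomal protein. So did the melanocyte and neural crest sum, at 13.7 in SKLMS1 and 2.47 in SKUT1, against 1.59 in RKN and 1.31 in SKN, led by MITF in SKLMS1. Their part in the results was not tested.

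The 4 lines can be divided into 2 pairs in 3 ways, and the same rule found 152 genes for SKLMS1 and SKUT1 against RKN and SKN, 130 for SKLMS1 and SKN against RKN and SKUT1, and 126 for SKN and SKUT1 against RKN and SKLMS1. The shares above and below differed: 118 higher and 34 lower for the present pair, 72 and 58 for SKLMS1 with SKN, and 78 and 48 for SKN with SKUT1. These counts come from the same libraries and were not tested against each other. Without short and unplaced RNAs and RPS28 they were 113 and 26 for the present pair, 59 and 55 for SKLMS1 with SKN, and 74 and 25 for SKN with SKUT1. Among the 118, 83 reached an FPKM of 10 in both SKLMS1 and SKUT1, and 66 were under 1 in both RKN and SKN. Another 28 were at 1 or more in all 4 lines. The median gap was 2.71, with 45 genes at 3 or more and 8 at 5 or more. In 30 of the 118 a value of RKN or SKN was listed at 0, in 3 of them both. A listed 0 can be a failed estimate, and for such genes no fold is given. Their gaps are given and take the listed 0 as a value.

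**Figure D1:**
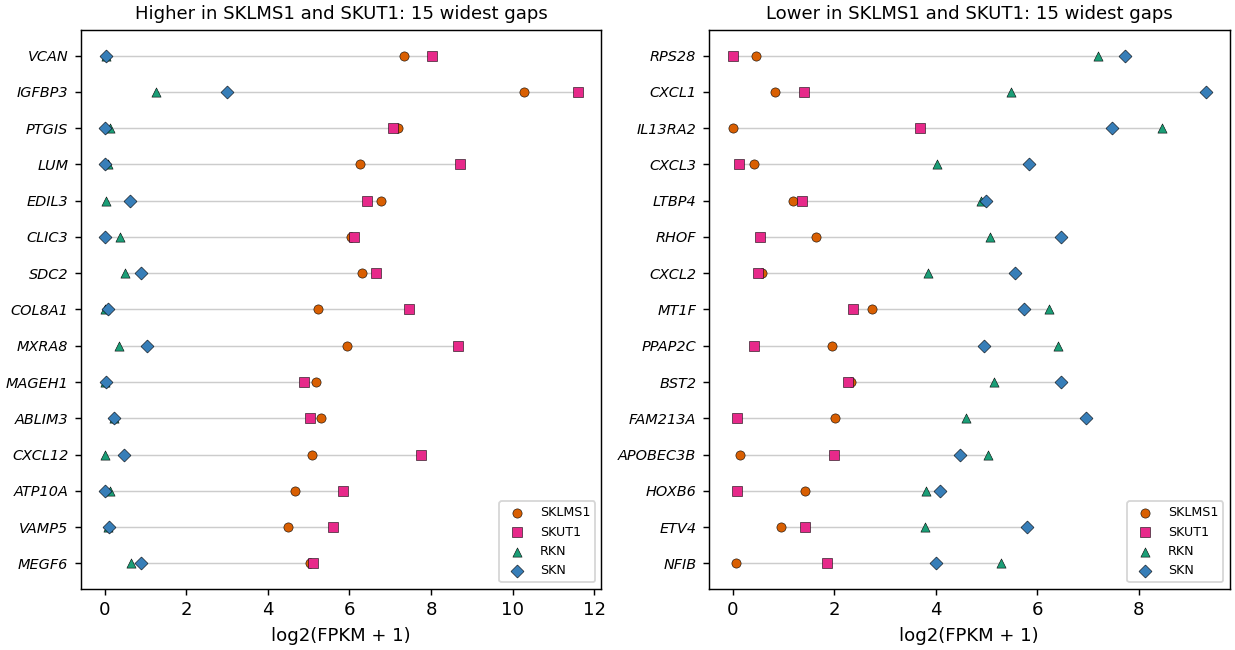
Level of the 15 genes with the widest gap in each direction, on log2(FPKM + 1), among genes at an FPKM of 10 or more in both lines of the higher pair, short and unplaced RNAs left out. Each point is 1 library. In the left panel SKLMS1 and SKUT1 lie to the right of RKN and SKN, from VCAN at a gap of 7.29 to MEGF6 at 4.13, and in the right panel they lie to the left, down to NFIB at -2.16.

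Of the smooth muscle contractile genes, 4 met the rule, TAGLN, CNN1, TPM1 and MYL9. TAGLN was 531 FPKM in SKLMS1 and 3816 in SKUT1, against 45.5 in RKN and 5.82 in SKN (gap 3.52). CNN1 was 29.6 in SKLMS1 and 86.4 in SKUT1, against 2.45 in RKN and 0.228 in SKN (gap 3.15). For both genes RKN stood above SKN and SKUT1 above SKLMS1. TPM1, a tropomyosin that lies along actin filaments, was 1177 in SKLMS1 and 2205 in SKUT1, against 70.9 in RKN and 138 in SKN. MYL9, the regulatory light chain of smooth muscle myosin, was 1155 in SKLMS1 and 1474 in SKUT1, against 191 in RKN and 39.4 in SKN. TPM1 and MYL9 were thus expressed in all 4 lines, and the pairs differed in level.

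These were 4 of the 29 measured genes on a list of smooth muscle contractile proteins. With no minimum gap, 20 of the 29 (69.0%) were higher in both SKLMS1 and SKUT1 than in both RKN and SKN, and 0 were lower in both. Across all genes 17.9% were higher in this sense and 17.5% lower. The list was chosen with earlier results of these data known, so this contrast is a description. Some of the 20 had small gaps at low values. MYH11 was 0.415 in SKLMS1 and 1.15 in SKUT1, against 0.268 in RKN and 0.216 in SKN (gap 0.16). The list's median difference between pair means was 2.18 on the log2 scale. Taken singly, SKLMS1 was above both RKN and SKN in 22 of the 29 and SKUT1 in 23, with medians of 1.12 and 2.20 from their mean. The 17.9% is for both lines together, and no share of all genes was computed for 1 line alone. ACTA2, smooth muscle actin, kept this order with a gap of only 0.58: it was 127 in SKLMS1 and 1085 in SKUT1, against 84.7 in RKN and 1.37 in SKN. MYLK, the kinase of myosin light chain, was 65.7 in SKLMS1 and 31.5 in SKUT1, against 0.805 in RKN and 11.8 in SKN (gap 1.35). CALD1, caldesmon, was 131 in SKLMS1 and 1246 in SKUT1, against 37.1 in RKN and 44.1 in SKN (gap 1.55). The pairs overlapped for 9 of the 29, among them SMTN (smoothelin), with 22.9 in SKLMS1 and 44.1 in SKUT1, against 32.9 in RKN and 45.6 in SKN, and ACTN1, an actin cross-linker, with 421 in SKLMS1 and 296 in SKUT1, against 102 in RKN and 356 in SKN.

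**Figure D2:**
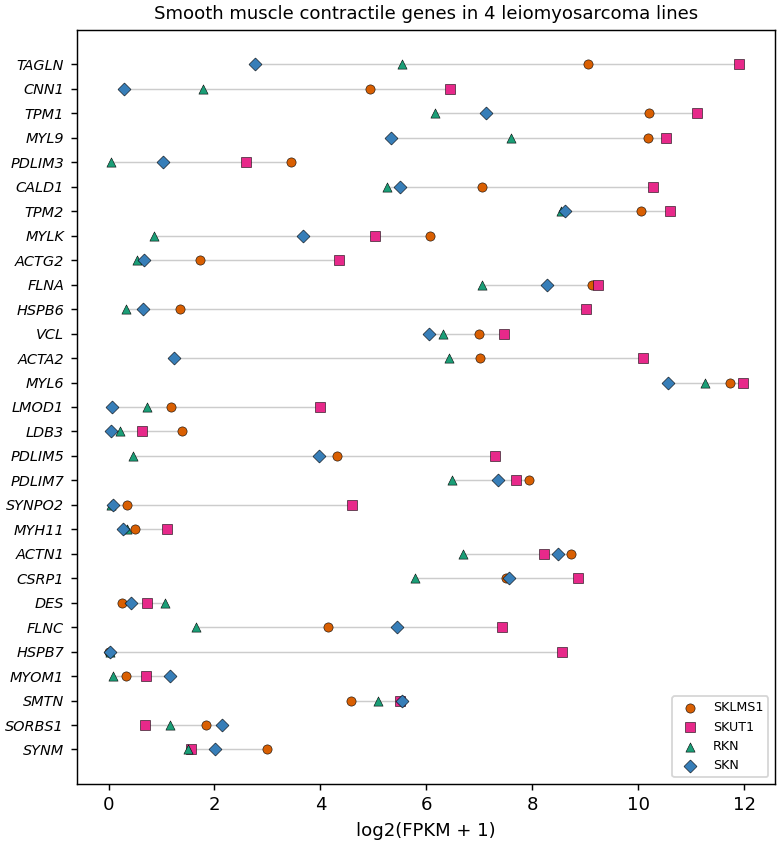
The 29 measured smooth muscle contractile genes in the 4 lines, on log2(FPKM + 1), ordered by gap. Each point is 1 library. TAGLN, CNN1, TPM1 and MYL9 at the top have gaps above 2, and from ACTN1 downwards the pairs overlap.

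Other actin and muscle proteins were among the members, 15 of the higher ones in all. This and later counts by role are descriptions. Roles were given to members only, after their values were seen, so no share of all genes stands beside them. FHL2, a LIM-domain cofactor of SRF and other factors, was 294 FPKM in SKLMS1 and 518 in SKUT1, against 42.3 in RKN and 62.3 in SKN. DSTN, the actin-depolymerizing protein destrin, was 1072 in SKLMS1 and 742 in SKUT1, against 132 in RKN and 148 in SKN. PALLD, palladin of stress fibres, was 43.1 in SKLMS1 and 183 in SKUT1, against 1.85 in RKN and 9.83 in SKN. Each of these 3 genes was expressed in all lines, with the lines of RKN and SKN close together for FHL2 and DSTN. ABLIM3, an actin-binding LIM protein, was 38.7 in SKLMS1 and 31.8 in SKUT1, against 0.165 in RKN and 0.181 in SKN. ANKRD1, a nuclear and sarcomeric ankyrin protein and a well-known target of the coactivator YAP, was 18.0 in SKLMS1 and 204 in SKUT1, against 0.117 in RKN and 0.0223 in SKN. The small heat shock genes CRYAB and HSPB8 encode chaperones of muscle. CRYAB differed widely within the higher pair, at 15.002 in SKLMS1 and 936 in SKUT1, against 0.0612 in RKN and a listed 0 in SKN. HSPB8 differed less, at 28.5 in SKLMS1 and 57.5 in SKUT1, against 1.95 in RKN and 0.175 in SKN. SKUT1 minus SKLMS1 was 5.87 for CRYAB and 0.987 for HSPB8 on log2(FPKM + 1). The remaining higher members of this kind were ALPK2, NEDD9, FILIP1L and PALMD, with gaps of 3.39, 2.86, 2.50 and 2.27. PALMD was listed at 0 in RKN.

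Of 32 measured SRF and myocardin family regulators, FHL2 alone met the rule, 10 (31.25%) were higher without overlap and 1 lower (median 0.84). The shares over all genes, 17.9% higher and 17.5% lower, are the background for this and every later list. Among the 10 was MYOCD (myocardin), at 0.0303 in SKLMS1 and 5.16 in SKUT1, against 0.00897 in RKN and 0.00596 in SKN. Its order in SKLMS1 rests on values near 0. Of 24 YAP and MRTF target genes, ANKRD1 and IGFBP3 met it, 12 were higher without overlap and 1 lower (median 1.02). CYR61, a secreted YAP target, was 259 in SKLMS1 and 565 in SKUT1, against 20.4 in RKN and 85.6 in SKN, a gap of 1.58. Of 30 integrin and focal adhesion genes none met the rule, while 13 were higher without overlap and 0 lower (median 1.21). The widest gap there was that of LIMS2, an adaptor of integrin-linked kinase, with 15.03 in SKLMS1 and 90.6 in SKUT1, against 3.26 in RKN and 0.0256 in SKN (gap 1.91). In the list of calcium handling and contraction signalling, 1 of 29 met the rule, 10 were higher without overlap and 1 lower (median 0.82). It was ATP2B4, a plasma membrane calcium pump, at 30.5 in SKLMS1 and 88.1 in SKUT1, against 3.29 in RKN and 6.46 in SKN.

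Of the 118 higher members, 18 encode matrix proteins, proteoglycans or their enzymes, a count by role with no share of all genes to compare. VCAN, the large proteoglycan versican, was 159.6 FPKM in SKLMS1 and 257 in SKUT1, against 0.0223 in RKN and 0.0296 in SKN, the widest gap of the higher members (7.29). LUM, lumican, a small proteoglycan that binds collagen, was 75.3 in SKLMS1 and 415 in SKUT1, against 0.0620 in RKN and a listed 0 in SKN. EDIL3, an integrin-binding matrix protein, was 109 in SKLMS1 and 85.3 in SKUT1, against 0.0321 in RKN and 0.540 in SKN. For these genes both RKN and SKN were near or at 0. SDC2, a cell-surface heparan sulfate proteoglycan, was 78.1 in SKLMS1 and 98.8 in SKUT1, against 0.415 in RKN and 0.852 in SKN. COL8A1, a collagen of vessel walls, was 36.2 in SKLMS1 and 175 in SKUT1, against a listed 0 in RKN and 0.0558 in SKN. MXRA8, a cell adhesion protein, was 60.0 in SKLMS1 and 406 in SKUT1, against 0.287 in RKN and 1.07 in SKN.

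Other matrix members differed in how far RKN and SKN expressed them. COL5A1, a chain of fibrillar type V collagen, was 203 FPKM in SKLMS1 and 566 in SKUT1, against 8.04 in RKN and 36.3 in SKN. THBS1, thrombospondin, was 137 in SKLMS1 and 2534 in SKUT1, against 7.50 in RKN and 19.6 in SKN. CTHRC1, a secreted protein that limits collagen deposition, was 80.4 in SKLMS1 and 48.5 in SKUT1, against 0.276 in RKN and 9.74 in SKN. The basement membrane genes NID2 (nidogen) and HSPG2 (perlecan) were 22.1 and 27.1 in SKLMS1 and 102 and 156 in SKUT1. In RKN they were 0.0979 and 4.32, and in SKN 3.18 and 0.305. CSGALNACT1, which starts chondroitin sulfate chains such as those on versican, was 16.8 in SKLMS1 and 18.3 in SKUT1, against 0.194 in RKN and 0.182 in SKN. MEGF6, ABI3BP, LOXL4 (a collagen cross-linking enzyme), WISP2, GPC4 and PTN completed the group, with gaps from 4.13 for MEGF6 to 2.21 for PTN. ABI3BP was listed at 0 in RKN, and LOXL4 and WISP2 in SKN.

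Of 43 measured genes for fibrillar collagens and other matrix proteins, 6 met the rule, 15 (34.9%) were higher without overlap and 0 lower, and the median difference was 3.10. SKUT1 was above both RKN and SKN in 40 of the 43 (median 5.64 from their mean), and SKLMS1 in 16, with 5 below both (median 0.20). For 1 line alone the share of all genes was not computed. COL3A1, a fibrillar collagen, was 1.53 in SKLMS1 and 1498 in SKUT1, against 80.6 in RKN and 0.0894 in SKN. COL1A1 and FN1 (fibronectin) were listed at 0 in SKUT1, with 939 and 651 in SKLMS1. In RKN they were 7.06 and 0.266, and in SKN 0.447 and 2960. They were the 2 genes of the list with SKUT1 below both RKN and SKN. These listed 0 values can be failed estimates, which was not tested. COL1A2, another type I collagen gene, was 5096 in SKUT1. SKUT1 also stood further out in matrix proteases and inhibitors, where the median from the mean of RKN and SKN was 0.01 in SKLMS1 and 2.09 in SKUT1. On the basement membrane list 2 of 21 met the rule, 5 (23.8%) were higher without overlap and 0 lower (median 1.11). That higher share is near the 17.9% of all genes. Among matrix proteases and inhibitors 3 of 39 met it, 13 were higher and 3 lower without overlap (median 0.97). MMP2, a gelatinase, was 31.0 in SKLMS1 and 616 in SKUT1, against 0.925 in RKN and 5.12 in SKN. TIMP3, a metalloprotease inhibitor held in the matrix, was 18.6 in SKLMS1 and 2838 in SKUT1, against 2.08 in RKN and 0.0373 in SKN. ADAMTS2 and BMP1, which trim the ends of procollagens, were 8.81 and 63.5 in SKLMS1 and 109 and 84.7 in SKUT1. They were 0.569 and 11.9 in RKN and 0.0361 and 12.7 in SKN. Also higher were ADAMTS15 and CST2, each under 5 FPKM in SKLMS1 and SKUT1.

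Of 22 measured genes of the insulin-like growth factor axis, 3 met the rule, all of them binding proteins. IGFBP3, which carries insulin-like growth factors and is induced by TGF-beta in many cells, was 1230.45 FPKM in SKLMS1 and 3096 in SKUT1, against 1.39 in RKN and 6.96 in SKN (gap 7.27). IGFBP7 was 625 in SKLMS1 and 3300.2 in SKUT1, against 0.289 in RKN and 44.2 in SKN. IGFBP4 was 771 in SKLMS1 and 1565 in SKUT1, against 102 in RKN and 155 in SKN. IGFBP5 was also higher in both SKLMS1 and SKUT1, but with RKN above SKN, at 20.2 in SKLMS1 and 232 in SKUT1, against 9.30 in RKN and 0.0587 in SKN, a gap of 1.04. The pairs overlapped for IGFBP2 and IGFBP6, and IGFBP6 was 119 in SKLMS1 and 497 in SKUT1, against 246 in RKN and 78.4 in SKN. In the whole axis 8 of 22 were higher without overlap and 1 lower (median 1.05).

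Receptors and ligands of other growth factors followed. PDGFRB, the platelet-derived growth factor receptor of pericytes and smooth muscle, was 33.7 FPKM in SKLMS1 and 70.7 in SKUT1, against 1.60 in RKN and 0.00714 in SKN. EREG, an EGF receptor ligand, was 17.8 in SKLMS1 and 13.0 in SKUT1, against 0.335 in RKN and 0.00890 in SKN. KITLG, the ligand of KIT, was 11.9 in SKLMS1 and 33.1 in SKUT1, against 0.205 in RKN and 1.72 in SKN. Of 56 measured receptor tyrosine kinases and ligands 4 met the rule, 16 were higher and 3 lower without overlap (median 0.71). The decoy receptor FGFRL1, the GDNF co-receptor GFRA1, the receptor adaptor GRB14, EDN1 (endothelin) and THBD (thrombomodulin) were further members of this kind, with gaps of 2.13, 3.31, 2.05, 2.54 and 3.15. GFRA1, GRB14 and EDN1 were listed at 0 in RKN, and THBD in SKN. CXCL12, a chemokine of stromal cells, was 32.8 in SKLMS1 and 214 in SKUT1, against a listed 0 in RKN and 0.386 in SKN, and IL20RB, a cytokine receptor chain, had a gap of 2.61.

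Several members limit TGF-beta and BMP signalling. BAMBI, a pseudoreceptor that blocks TGF-beta receptors, was 24.8 FPKM in SKLMS1 and 33.8 in SKUT1, against 0.742 in RKN and 0.363 in SKN. SMAD7, an inhibitory SMAD induced by the pathway, was 14.5 in SKLMS1 and 38.7 in SKUT1, against 0.723 in RKN and 2.78 in SKN. FSTL3, a secreted activin antagonist, was 102 in SKLMS1 and 152 in SKUT1, against 12.4 in RKN and 15.4 in SKN. VASN, a membrane protein that binds TGF-beta, was 24.5 in SKLMS1 and 240.4 in SKUT1, against 3.27 in RKN and 1.33 in SKN. Of the 41 measured TGF-beta and BMP genes, 4 met the rule (BAMBI, FSTL3, BMP1 and SMAD7), 11 were higher and 1 lower without overlap (median 1.16). In the WNT list FZD7, a WNT receptor, met the rule with 15.6 in SKLMS1 and 42.0 in SKUT1, against 2.94 in RKN and 2.55 in SKN. It was 1 of 37, with 10 higher and 2 lower without overlap (median 0.46).

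Enzymes of prostanoid and xenobiotic metabolism gave 8 higher members. PTGIS, prostacyclin synthase, was 146 FPKM in SKLMS1 and 132 in SKUT1, against 0.0878 in RKN and a listed 0 in SKN. PTGES, a prostaglandin E synthase, was 65.7 in SKLMS1 and 57.9 in SKUT1, against 3.39 in RKN and 8.09 in SKN. For both enzymes SKLMS1 and SKUT1 were close together. NNMT, which methylates nicotinamide, was 158 in SKLMS1 and 269.8 in SKUT1, against 0.108 in RKN and 18.2 in SKN. CYP1B1, a cytochrome P450, was 14.3 in SKLMS1 and 378 in SKUT1, against 0.724 in RKN and a listed 0 in SKN. ALDH1L2, a mitochondrial folate enzyme, was 13.0 in SKLMS1 and 63.8 in SKUT1, against 2.25 in RKN and 0.189 in SKN. The aldo-keto reductases AKR1C1 and AKR1C2 had gaps of 2.65 and 2.12, and the glutathione transferase GSTM2 had 2.90. AKR1C genes and GSTM genes have near-identical copies, so the split of reads among them is uncertain. On the list of aldehyde, retinoid and xenobiotic metabolism 3 of 28 met the rule, 9 were higher and 3 lower without overlap (median 0.53).

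Among 44 measured interferon-stimulated genes, 1 met the rule upwards and 1 downwards. The lower one was BST2 (tetherin), which traps budding viruses, with 4.03 in SKLMS1 and 3.85 in SKUT1, against 34.3 in RKN and 87.7 in SKN. Without a minimum gap 14 of the 44 (31.8%) were lower in both SKLMS1 and SKUT1 and 7 (15.9%) higher (median -0.26). OAS3, a sensor of double-stranded RNA, lay just outside the rule at 3.004 in SKLMS1 and 0.356 in SKUT1, against 25.1 in RKN and 14.6 in SKN.

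The higher members included 13 regulators of transcription. NUPR1, a stress-induced chromatin protein, had 42.2 FPKM in SKLMS1 and 305 in SKUT1, against 2.47 in RKN and 0.181 in SKN. CITED2, a CBP/p300-binding regulator, was 60.0 in SKLMS1 and 276 in SKUT1, against 11.9 in RKN and 13.6 in SKN. PLAGL1, an imprinted zinc finger factor, was 35.7 in SKLMS1 and 61.2 in SKUT1, against 2.97 in RKN and 1.93 in SKN. The repressor MSC (musculin) was 11.3 in SKLMS1 and 22.9 in SKUT1 and was listed at 0 in RKN and SKN. FOXC2, LBH, CXXC5, NFIL3, TSC22D3, MN1, MAF and C1orf51 had gaps from 3.66 for LBH down to 2.08 for TSC22D3.

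Membrane, adhesion and traffic proteins made up most of the rest. CLIC3, a chloride intracellular channel protein, was 64.6 FPKM in SKLMS1 and 68.4 in SKUT1, against 0.293 in RKN and a listed 0 in SKN. TRPC4, a cation channel of smooth muscle, was 8.40 in SKLMS1 and 11.2 in SKUT1 and was listed at 0 in RKN and SKN. ATP10A, a lipid flippase, had 24.3 in SKLMS1 and 56.2 in SKUT1, against 0.0883 in RKN and a listed 0 in SKN. VAMP5, a vesicle protein of muscle, was 21.4 in SKLMS1 and 47.6 in SKUT1, against 0.0646 in RKN and 0.0859 in SKN. DAB2, an endocytic adaptor, was 56.1 in SKLMS1 and 97.3 in SKUT1, against 0.364 in RKN and 5.41 in SKN. The desmosome gene DSP (desmoplakin) was 10.9 in SKLMS1 and 201 in SKUT1, against 0.820 in RKN and 0.260 in SKN. No other gene of the epithelial list met the rule upwards. The guidance genes NTN4 and SEMA5A were 9.76 and 10.3 in SKLMS1 and 290 and 15.5 in SKUT1. In RKN they were 0.0174 and 0.00255, and in SKN 0.635 and 0.451. PDE1C, PPP1R3C, PPP1R14C, GULP1, COPZ2, SYT15, TENM3, AMIGO2, PTGFRN and TSPAN2 were also members, with gaps from 3.78 for COPZ2 to 2.15 for PPP1R14C. Of these, PDE1C, SYT15 and TSPAN2 were listed at 0 in RKN. MAGEH1, of the MAGE family, was 35.0 in SKLMS1 and 28.6 in SKUT1, against a listed 0 in RKN and 0.0313 in SKN. It was the only one of 7 measured cancer-testis list genes to meet the rule. The last 19 higher members were 14 further genes (TMEM101, TMEM47, TMEM178B, PSG5, VSTM4, APBB1IP, LEPROT, COBLL1, PAWR, TTC9, FANK1, TRO, MOXD1 and BICC1) and 5 unplaced or long noncoding RNAs.

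Within the higher members SKLMS1 and SKUT1 were often unequal. In 84 of the 118 SKUT1 was above SKLMS1 and in 34 below, while SKUT1 was above in 50.9% of all 13713 genes. The median of SKUT1 minus SKLMS1 was 0.76 (log2), against 0.02 over all genes. In 60 of the 118 the 2 lines lay within 2-fold (less than 1 on that scale), as did 66.8% of all genes. SKUT1 exceeded SKLMS1 by 2 or more in 31 of the 118, against 7.28% of all genes. SKLMS1 exceeded SKUT1 by that much in 4, GFRA1, PTN, EDN1 and an unplaced RNA, for which no share of all genes was computed. The widest difference was that of TIMP3 (7.18). Of the 28 higher members at an FPKM of 1 or more in both RKN and SKN, 16 were within 2-fold between these lines by FPKM. TAGLN was 1 of 3 higher members with RKN above SKN by 2 or more. The order of TAGLN and CNN1, SKUT1 above SKLMS1 above RKN above SKN, was shared by 36 of the 118. In 45 SKN stood above RKN instead.

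**Figure D3:**
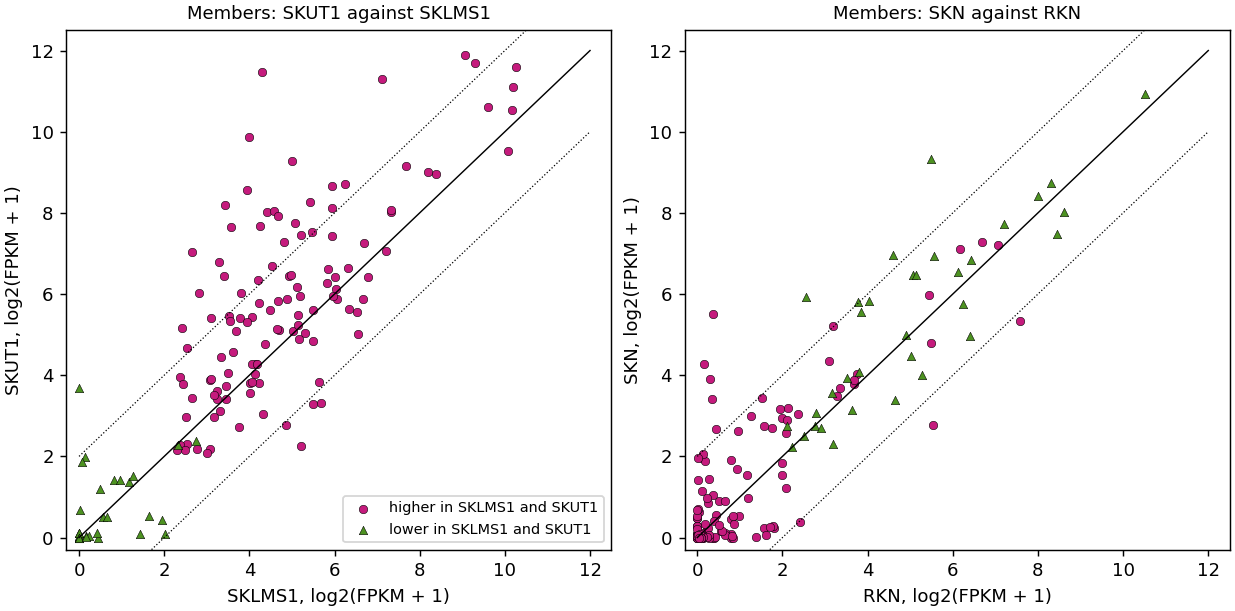
The 152 members in SKUT1 against SKLMS1 (left) and in SKN against RKN (right), on log2(FPKM + 1). Circles are members higher in SKLMS1 and SKUT1 and triangles are lower members. The solid line marks equal values and the dotted lines a difference of 2. Of the 118 higher members, 31 lie above the upper dotted line in the left panel, a difference reached by 7.28% of all genes.

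Of the 34 lower members, 8 rest on values that need care. Of these, 7 are short RNAs, the small nucleolar RNAs SNORD80, SNORD47, SNORD104, SNORD35B, SNORD116-4 and SNORD116-22 and the microRNA precursor MIR1291, which a poly(A) library measures poorly. All 7 were listed at 0 in SKLMS1 and SKUT1. SNORD80 was 1458 FPKM in RKN and 1937 in SKN, a ratio of RKN to SKN of 0.7525. The same ratio, within 0.1%, was found in 5 of the 7, and it was the most frequent ratio of RKN to SKN over all genes above 0 in both lines (198 of 14998). It is the ratio that equal numbers of reads give at the estimated depths of 33600000 reads in RKN and 25300000 in SKN. SNORD104 had 2 times that ratio and SNORD116-22 had 0.5 times. High FPKM of such short RNAs can thus rest on few reads, but the numbers of reads are not given and this was not tested. The eighth was RPS28, which encodes a protein of the small ribosomal subunit needed in all cells, at 0.370 in SKLMS1 and a listed 0 in SKUT1, against 146 in RKN and 211 in SKN. Without these 8 genes 26 lower members remained, and without the 5 unplaced or noncoding RNAs 113 higher ones. Of these 26, 7 also met the rule with a pseudocount of 5 in place of 1, CXCL1, IL13RA2, LTBP4, RHOF, MT1F, PPAP2C and BST2. The other lower members, CXCL2 (-1.75), CXCL3 (-1.93) and all 7 transcription regulators among them, did not.

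The lower members included 3 CXC chemokines that attract neutrophils. CXCL1 was 0.775 FPKM in SKLMS1 and 1.65 in SKUT1, against 43.8 in RKN and 641 in SKN (gap -4.08). CXCL2 was 0.488 in SKLMS1 and 0.410 in SKUT1, against 13.5 in RKN and 46.4 in SKN. CXCL3 was 0.343 in SKLMS1 and 0.0863 in SKUT1, against 15.3 in RKN and 56.3 in SKN. In each case SKN was above RKN, and both SKLMS1 and SKUT1 were under 2. These 3 genes are related copies, so the split of reads among them can be uncertain, and it was not examined. In the list of cytokines and chemokines 3 of 25 met the rule downwards and 1 upwards, with 7 lower and 5 higher without overlap (median -0.83). CXCL5 and IL8 (CXCL8) were lower with gaps of -1.45 and -1.57. CXCL6, of the same group, overlapped, with 0.179 in SKLMS1 and 1.66 in SKUT1, against a listed 0 in RKN and 0.217 in SKN. IL13RA2, the decoy receptor of interleukin 13, was listed at 0 in SKLMS1 and was 11.9 in SKUT1, against 351 in RKN and 176 in SKN.

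The 3 chemokine promoters are shown because the 3 genes were lower together and are known targets of NF-kB. The sequences are those of RefSeq on GRCh38.p14, from 110 bases before the transcription start to 10 bases from it, with the motif GGGAATTTCC in capitals. CXCL1 lies at chr4:73869283-73869402 on the plus strand, CXCL2 at chr4:74099186-74099305 on the minus strand and CXCL3 at chr4:74038680-74038799 on the minus strand.
CXCL1: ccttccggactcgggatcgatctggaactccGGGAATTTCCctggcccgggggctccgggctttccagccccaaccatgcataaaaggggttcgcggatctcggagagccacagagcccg
CXCL2: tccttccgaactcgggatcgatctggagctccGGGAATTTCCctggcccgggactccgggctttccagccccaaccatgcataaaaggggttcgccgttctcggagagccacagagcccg
CXCL3: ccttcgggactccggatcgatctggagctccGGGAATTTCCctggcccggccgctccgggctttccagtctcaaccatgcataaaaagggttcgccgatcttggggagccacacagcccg
In global alignments of these 120 bases, CXCL1 shared 114 bases with CXCL2 and 108 with CXCL3, and CXCL2 shared 107 with CXCL3, so the 3 matches come from related sequence. The motif, searched on both strands in 300 bases (250 before the start and 50 from it), was in 44 of 27305 RefSeq promoters (0.161%). It was in 3 of the 19 lower members with a promoter entry, these 3, and in 0 of 84 higher members. Because these 3 related promoters were picked after the genes were seen to be lower, the counts do not test the lower members as a group. CXCL3 and CXCL2 were also neighbours in the RefSeq gene order.

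CArG boxes were searched in the same windows because SRF is the best-known regulator of the contractile genes. They were found in 3 of the 84 higher members with an entry (3.57%), FHL2, FILIP1L and FSTL3, in 1 of 19 lower ones (RPS28) and in 351 of all 27305 promoters (1.29%). The box is read alike on both strands. TAGLN and MYL9 had no entry in the table, and the window of CNN1 and TPM1 held no match. The 60 bases around each match follow, with the box in capitals, for FHL2 at chr2:105438584-105438643 (minus strand), FILIP1L at chr3:99876204-99876263 (minus strand) and FSTL3 at chr19:676332-676391 (plus strand).
FHL2: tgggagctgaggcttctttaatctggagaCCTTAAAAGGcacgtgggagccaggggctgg
FILIP1L: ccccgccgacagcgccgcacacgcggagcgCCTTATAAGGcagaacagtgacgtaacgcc
FSTL3: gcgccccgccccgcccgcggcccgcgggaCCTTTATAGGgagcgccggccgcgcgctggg
The boxes of FILIP1L and FSTL3 also hold the letters TATA. A match describes these letters only, and no binding was measured.

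The lower members included 7 transcription regulators. HOXB5 was 0.121 FPKM in SKLMS1 and 0.0253 in SKUT1, against 5.94 in RKN and 7.34 in SKN. HOXB6, its neighbour in the HOXB cluster, was 1.70 in SKLMS1 and 0.0555 in SKUT1, against 12.9 in RKN and 15.9 in SKN. All 7 genes from HOXB3 to HOXB9 were lower in both SKLMS1 and SKUT1, with gaps from -0.57 for HOXB9 to -2.63 for HOXB5. Elsewhere in the cluster the pairs overlapped for HOXB2 and HOXB13. HOXB2 was 9.97 in SKLMS1 and 9.86 in SKUT1, against 8.25 in RKN and 25.3 in SKN. HOXB13 was 0.882 in SKLMS1 and a listed 0 in SKUT1, against 9.49 in RKN and 0.0139 in SKN. SKLMS1 kept part of the expression of HOXB7 (10.9, with 0.282 in SKUT1, against 22.02 in RKN and 36.6 in SKN) and HOXB9 (5.64, with 0.0491 in SKUT1, against 9.75 in RKN and 8.87 in SKN). In the whole HOX list 2 of 34 measured genes met the rule downwards and 0 upwards. Without a minimum gap 11 (32.4%) were lower and 5 (14.7%) higher, HOXA4, HOXA9 and HOXC4 among the higher ones, and the median was -0.01. HOX position codes are kept in many adult mesenchymal cells.

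WT1, a zinc finger factor of the developing gonad and kidney that is also expressed in the uterus, was listed at 0 in SKLMS1 and was 0.0735 in SKUT1, against 4.67 in RKN and 4.67 in SKN. It was the only one of 15 measured uterine, Mullerian and steroid receptor genes to meet the rule. NFIB, a nuclear factor I gene, was 0.0448 in SKLMS1 and 2.62 in SKUT1, against 37.9 in RKN and 15.1 in SKN. ETV4, an ETS factor induced by ERK signalling, was 0.947 in SKLMS1 and 1.67 in SKUT1, against 12.8 in RKN and 55.0 in SKN. HHEX was 0.0209 in SKLMS1 and 0.605 in SKUT1, against 8.01 in RKN and 10.8 in SKN, and TLX3 was listed at 0 in SKLMS1 and SKUT1, against 3.34 in RKN and 5.69 in SKN.

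Other lower members were single genes of several kinds. LTBP4, a latent TGF-beta binding protein of elastic fibres, was 1.27 FPKM in SKLMS1 and 1.59 in SKUT1, against 28.7 in RKN and 30.7 in SKN, with each pair close together. RHOF, a small GTPase that drives filopodia, was 2.12 in SKLMS1 and 0.447 in SKUT1, against 32.4 in RKN and 87.3 in SKN. APOBEC3B, a cytidine deaminase of DNA, was 0.103 in SKLMS1 and 2.99 in SKUT1, against 31.6 in RKN and 21.2 in SKN. MT1F, a metallothionein with near-identical copies, was 5.68 in SKLMS1 and 4.18 in SKUT1, against 74.8 in RKN and 52.8 in SKN. PPAP2C, a lipid phosphatase, was 2.88 in SKLMS1 and 0.346 in SKUT1, against 84.1 in RKN and 30.1 in SKN. FAM213A was 3.07 in SKLMS1 and 0.0573 in SKUT1, against 23.1 in RKN and 123 in SKN. PDPN (podoplanin) was listed at 0 in SKLMS1 and was 0.0784 in SKUT1, against 4.85 in RKN and 60.0 in SKN. STK33, RSPO4, NRGN, MYH14, PSD4 and APBA2 were also lower, with gaps from -2.52 for STK33 to -2.001 for APBA2. RSPO4 was listed at 0 in SKLMS1 and SKUT1.

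Lists without a member that met the rule numbered 10 of 31. The counts below compare with 17.9% of all genes higher and 17.5% lower without overlap. Several are near these shares, such as Notch genes (22.2% higher) and axon guidance genes (13.8% higher and 17.2% lower). Of 40 proliferation genes 0 were higher and 9 (22.5%) were lower without overlap, with the widest gap being -0.91 (E2F8), and the median was -0.85. That median reflects SKUT1, which was below both RKN and SKN in 40 of the 40 genes (median -1.54 from their mean). SKLMS1 was below both in 9 and above both in 9 (median -0.08). For 1 line alone the share of all genes was not computed. CCNB1, a mitotic cyclin, was 186 in SKLMS1 and 21.1 in SKUT1, against 165 in RKN and 182 in SKN. Of 28 cholesterol and fatty acid synthesis genes 10 were higher and 1 lower without overlap (median 0.51). Adhesion molecules had 8 higher and 0 lower of 32 (median 0.88), neuronal and synaptic genes 8 and 2 of 33 (median 0.01), p53 target genes 8 and 4 of 25 (median 0.38) and glycolysis and hypoxia genes 7 and 4 of 31 (median 0.40). Notch genes had 4 higher and 2 lower of 18 (median 0.23), caveolar genes 4 and 1 of 9 (median 0.86), and MHC class II and antigen presentation genes 2 and 0 of 8 (median 0.70). Among lists with members, the small GTPase and actin remodelling genes had 14 higher and 12 lower without overlap of 64 (median -0.09), with DSTN, ABLIM3 and PALLD meeting the rule upwards and RHOF downwards. Oxidative stress and NRF2 targets had 13 and 5 of 41 (median 0.71), axon guidance genes 4 and 5 of 29 (median 0.41) and epithelial genes 8 and 2 of 28 (median 0.79). Uterine and steroid receptor genes had 3 and 2 of 15 (median -0.06), and the cancer-testis list 3 and 2 of 7 (median 0.31). Its 3 higher genes were MAGED1, MAGED2 and MAGEH1, all of the MAGE family. Its 2 lower genes were PRAME (gap -1.63) and LAGE3 (-0.06), so these counts do not describe cancer-testis antigens as a class.

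**Figure D4:**
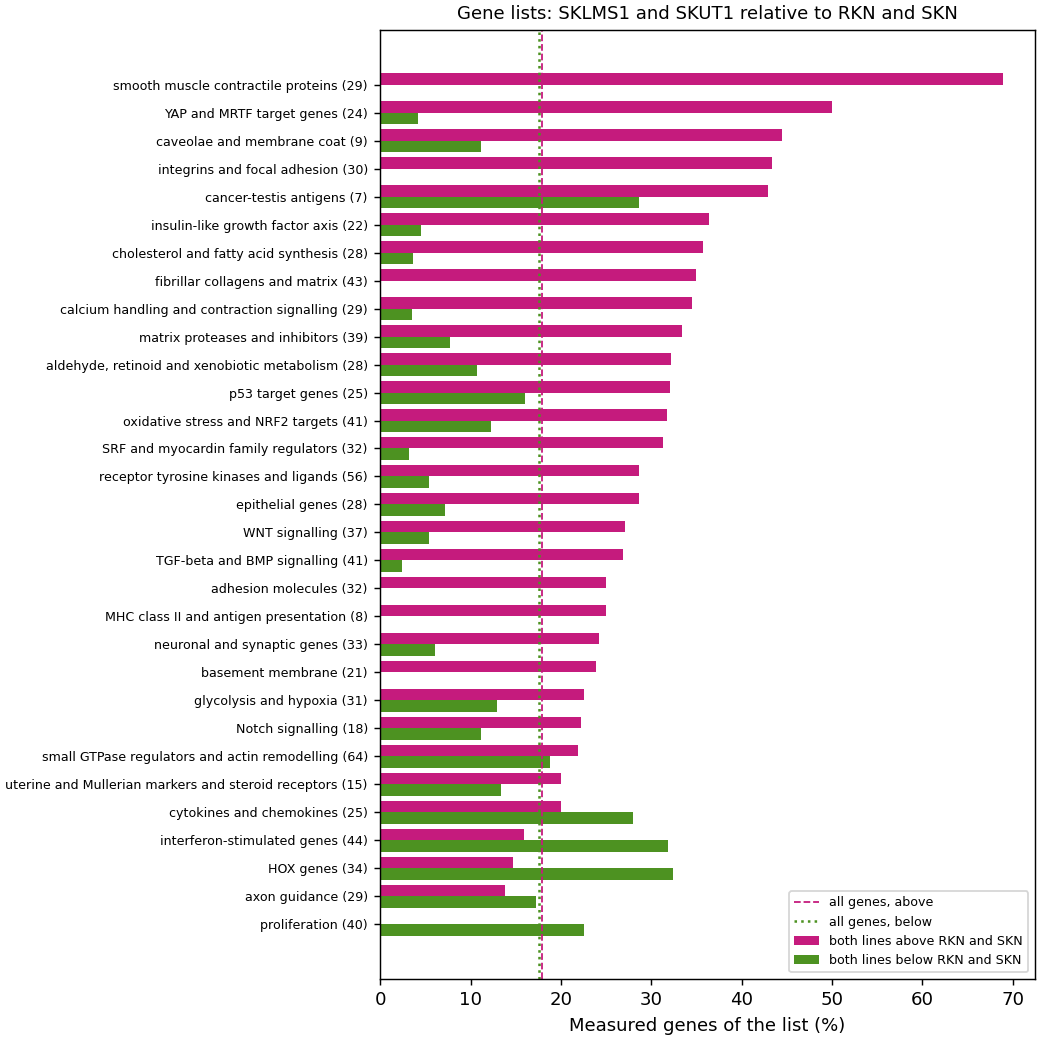
Share of the measured genes of 31 lists that were higher (upper bar) or lower (lower bar) in both SKLMS1 and SKUT1 than in both RKN and SKN, with the number measured in brackets. Vertical lines give the shares over all 13713 genes, 17.9% above and 17.5% below. The contractile list has 69.0% above and 0% below, and the HOX list 32.4% below.

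Just inside the rule, among genes at an FPKM of 10 or more in both lines of the higher pair, lay PALLD, SMAD7 and MOXD1 above (gaps 2.03, 2.03 and 2.04) and APBA2, NFIB and ETV4 below (-2.001, -2.16 and -2.37). Just outside lay LOXL2, NUAK1 and TPD52L1 above (1.999, 1.997 and 1.92) and OAS3, QPCT and PHLDA1 below (-1.97, -1.88 and -1.82). LOXL2, a collagen cross-linking enzyme, was 621 FPKM in SKLMS1 and 643 in SKUT1, against 14.99 in RKN and 155 in SKN. Placed by RefSeq, 148 members lay on 22 chromosomes, and 6 pairs of members were neighbours among the expressed genes, among them AKR1C1 with AKR1C2, GRB14 with COBLL1, HOXB5 with HOXB6, CXCL3 with CXCL2, and SNORD47 with SNORD80. In every pair both genes had the same direction.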

How the data were processed

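Per the labels' protocols, RNA was isolated with RNeasy Plus, and TruSeq Stranded mRNA libraries were sequenced from a single end (75 bp) on a NextSeq 500. STAR, Cufflinks and hg19 are named, per the submitters' processing notes. Their versions, the annotation and the strand setting: not given in the sources used here. Values were deposited as FPKM for each gene symbol, as computed by the authors. Of 23610 rows, 28 with a date number for a symbol and 5 with error cells were left out.

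Gaps and pair means were computed on log2(FPKM + 1) with Python 3.11.15, which understates differences of low genes. No test was possible with 1 library per line. Alternatives were other pseudocounts, scalings, filters and gaps, each line left out, and 1 added after seeing the data. The members, the 31 gene lists and the marker lists were chosen with earlier results of these data known, and the role groups after the values were seen. Named genes were TAGLN and CNN1, the 15 widest gaps per direction at FPKM 10 or more, up to 6 per list, and 3 on either side of the threshold. Other genes were named after their values were seen. Symbols were matched to RefSeq (GRCh38.p14) for 97.7% of expressed genes, for order and promoters only. The selection of members was tested on simulated data with known gaps. Some members are not reported here by name.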

Additional observations from a re-analysis of the deposited data

How the results depend on the processing

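The rule found 118 higher and 34 lower genes. All 152 kept their direction under 5 other scales (pseudocounts of 0.1 and 5, TPM, median-of-ratios and quantile normalization), and 45 higher and 15 lower ones met the rule under all 5. These 15 include the 7 short RNAs and RPS28, whose values need care. The rest of the 15 were CXCL1, IL13RA2, LTBP4, RHOF, MT1F, PPAP2C and BST2. The counts were 242 and 100 with a pseudocount of 0.1 and 46 and 15 with one of 5, since the pseudocount sets how low values weigh. On the TPM scale 57 were lower, and with genes at 0 left out 20. A gap of 1 gave 381 and 166, and a gap of 3 gave 45 and 17. Leaving out a line loosens the rule by construction: without RKN there were 231 higher and 247 lower, without SKLMS1 760 and 187, without SKN 430 and 255, and without SKUT1 351 and 92. The higher share of 77.6% was 48.3% without RKN and 62.8% without SKN. Counts under the other alternatives, with no filter, an FPKM of 5, median-of-ratios and quantile normalization, and without short and unplaced RNAs and RPS28 (added after seeing the data), stayed within 1.5 times. List medians of 0.5 or more in size kept their sign on all 5 scales, but several changed in size with the pseudocount. With 0.1 the TGF-beta and BMP signalling median was 2.32, the insulin-like growth factor axis 2.02 and matrix proteases and inhibitors 1.86. With 5 the epithelial genes had 0.24, the cytokines and chemokines -0.31 and the smooth muscle contractile proteins 1.27. Values under an FPKM of 1 can be few reads, which limits gaps that rest on them. No paired analysis was possible because each line has 1 library.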
